A study of Mus musculus with 30 samples.

Results

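Blood of p38DKI and p38WT mice was compared after both had been irradiated, over 10 of the 30 arrays of the series. The 5 arrays of each genotype were chosen by their titles. All mice were male C57BL/6J, and blood was drawn by cardiac puncture a day (24 h) after an x-ray dose of 7 Gy, so genotype is the only difference that the labels give between the groups. The 10 arrays of unirradiated p38DKI and p38WT mice (0 Gy) serve as background below. A further 10 arrays of a genotype labelled p38DN entered only the estimate of the spread and the choice of genes and probes to test. The series asks how p38 signaling bears on blood transcripts that are used to read a radiation dose. The labels do not say which alleles p38DKI stands for, which tissues they act in, or whether the p38WT mice were littermates. The series' design text speaks of 5 independent experiments for each genotype and treatment, and mice of a group are not tied to litters or days.

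The p38 kinases are mitogen-activated protein kinases that answer stress, radiation and inflammatory signals. The family has 4 genes, Mapk14 (p38alpha), Mapk11 (p38beta), Mapk12 (p38gamma) and Mapk13 (p38delta). Kinases upstream, MAP3Ks and then Map2k3 and Map2k6, switch them on by phosphorylation, and dual-specificity phosphatases switch them off. Downstream they act on transcription factors and on kinases that stabilise cytokine messengers. In blood cells p38alpha is best known for driving inflammatory cytokine production in myeloid cells and for its part in neutrophil responses. Arrays measure RNA, so kinase activity itself was not measured.

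All levels below are log2 of the processed signal relative to the 75th percentile of the array, and a difference is p38DKI minus p38WT, where 1 unit is a 2-fold change. A gene was called when limma's moderated test gave a Benjamini-Hochberg adjusted p under 0.05 over the 18724 genes tested, and "rose", "fell", "higher" and "lower" without a further remark refer to such calls. Standard errors (SE) come from a spread pooled over all groups. With 5 arrays a group, small differences cannot be resolved. In bulk blood, fewer cells of a type and less RNA per cell cannot be told apart.

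One array of the comparison stood apart. The mean level of 54 hepatocyte markers was 7.76 on p38DKI irradiated array 2 (array 2 below). On the other 4 p38DKI arrays it was -2.47 to 0.84, and on the 5 p38WT arrays -3.10 to -1.46. Summed over the markers the linear level was 24085 on array 2, 90.4 to 378.0 on the other p38DKI arrays and 49.5 to 121 on the p38WT arrays, with 33 to 54 markers well above background in p38DKI and 15 to 40 in p38WT. Heart muscle markers (19) had a mean of 2.65 on p38WT irradiated array 2 against -2.64 to -1.80 on the other p38WT arrays and -3.02 to -1.44 in p38DKI, with summed levels of 5.28 to 469 in p38WT and 5.47 to 10.7 in p38DKI. Of the blood lineages, all 30 mature neutrophil markers were well above background on all 10 arrays, and of 48 erythroid markers 44 to 48 were. In p38WT, 21 to 30 of 30 T cell, 16 to 23 of 27 B cell and 7 to 10 of 11 class II markers were. In p38DKI these counts were 28 to 30, 20 to 25 and 9 to 10. Other lists also had low ends in p38WT, with 23 to 25 of 25 NK, 24 to 30 of 30 monocyte and 69 to 77 of 77 ribosomal protein genes. Outlier spots counted as not well above background. Of all probes, 39.2% were well above background on p38WT irradiated array 3, against 51.1% to 58.6% on the other irradiated p38WT arrays. The part of the liver and heart transcripts in the results below was not tested. Counts and called genes are given with and without array 2. The 75th percentile itself lay at intensities of 56.7 to 86.2 in p38WT and 67.5 to 230.4 in p38DKI, highest on array 2. The irradiated p38WT arrays lay on slides 2 and 3 and the irradiated p38DKI arrays on slides 4 and 5, so among these 10 arrays slide and genotype cannot be told apart.

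With all arrays, 844 of 18724 genes were called (4.51%), 215 higher in p38DKI (1.15%) and 629 lower (3.36%). Without array 2, 1.20% of genes were called, 58 higher (0.310%) and 167 lower (0.892%). Both fits called 204 genes, 44 higher and 160 lower, while 640 were called only with array 2 and 21 only without it. All 865 genes called in either fit had the same direction in both. The groups did not overlap for 1188 genes with all arrays (6.34%) and for 1524 without array 2 (8.14%). Other single arrays also moved the count by over 1.5 times. It was 441, 534, 509 and 323 without p38WT irradiated arrays 1, 2, 3 and 4. Starting from the fit without array 2, it was 84, 72 and 121 without p38DKI arrays 1, 3 and 5, and 141, 143 and 143 without p38WT arrays 1, 2 and 4. The scaling, the slide, the background correction and the arrays that estimate the spread changed it more. The count was 1 with all arrays, and 2 without array 2, with slide as a fixed block or with another background correction. It was 1 and 4 when only the irradiated p38DKI and p38WT arrays estimated the spread. In that setting limma's unadjusted p was under 0.05 for 2703 and 2894 genes, against 4631 and 3149 in the main fits. Whether fewer arrays or a larger spread within these groups lowered the count was not tested. With all arrays, the single gene called under every setting was Sult4a1. The fixed slide block rests on p38DKI array 1, since slides link the genotypes only through a chain of shared groups. Of 29 genes among the 15 largest rises and 15 largest falls called in both fits, 27 kept their call in the fit of all arrays whichever single array was left out; the exceptions were Ccdc90b, lost without p38DKI array 3 or p38WT array 3 or 4, and Itgb3bp, lost without p38WT array 4. After array 2 had been left out, 6 of the 29 stayed called on every further omission: Sult4a1, Mapk12, Mapk11, Dbp, Apol11b and Tomm22. The plot of both fits shows the spread of the calls.

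**Figure D1:**
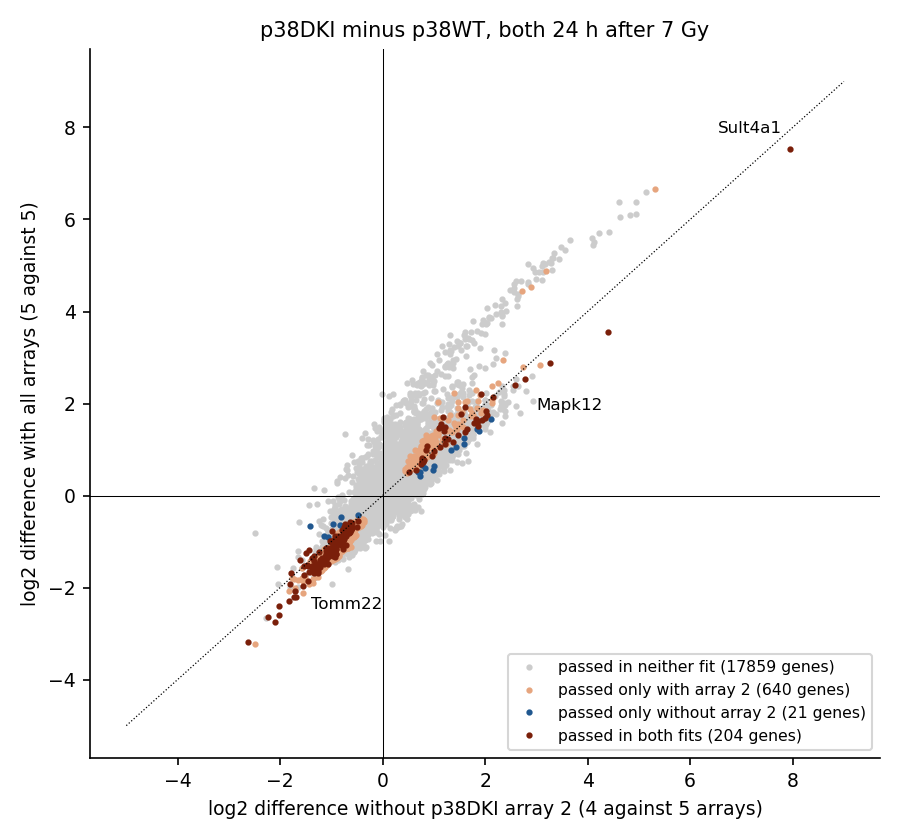
Each point is 1 of 18724 genes, with the log2 difference p38DKI minus p38WT without p38DKI irradiated array 2 on the horizontal axis (4 against 5 arrays) and with all arrays on the vertical axis (5 against 5), coloured by the fit in which it passed an adjusted p of 0.05. The dotted line marks equal values, and 204 genes passed in both fits. Sult4a1 stands at 7.95 without array 2 and 7.52 with all arrays. Hepatocyte genes such as Serpina1c, at 5.31 and 6.66, also stand high.

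The p38 genes themselves differed between the irradiated groups, and in unlike directions. Mapk11 and Mapk12, neighbours on chromosome 15, were higher in p38DKI, whereas Mapk13 and, with all arrays only, Mapk14, neighbours on chromosome 17, were lower. The labels do not give the bases that the p38DKI alleles change, so these levels are no check of the genotype.

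Mapk12 encodes p38gamma, the isoform best known from muscle. Its level was -1.75, -2.05, -1.66, -3.40 and -1.54 on p38WT arrays 1 to 5 and 0.07, -0.40, 0.67, 0.41 and 0.88 on p38DKI arrays 1 to 5. Every p38DKI array stood above every p38WT array, and p38WT array 4 was the lowest of all. The means were -2.08 ± 0.76 and 0.33 ± 0.51 (SD, n = 5 each), a difference of 2.41 (SE 0.31, 5.30-fold, adjusted p = 9.75e-05), and 2.59 without array 2 (adjusted p = 5.88e-05). The probe lay at chr15:88961267-88961326 (mm9), and 4 of 5 p38WT arrays were well above background.

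Mapk11 encodes p38beta, which shares many substrates with p38alpha. Its level was -0.68, -1.44, -1.44, -1.84 and -1.27 in p38WT and 0.72, -0.30, 0.40, 0.55 and 0.29 in p38DKI, again without overlap. The difference was 1.67 (SE 0.27, 3.17-fold, adjusted p = 0.00273), and 1.82 without array 2 (adjusted p = 0.00201). In unirradiated blood Mapk11 stood at 0.37, 0.17, 0.07, 0.61 and 0.04 in p38WT and at 1.51, 1.79, 2.07, 1.79 and 1.26 in p38DKI, so it was also higher before irradiation (1.43, adjusted p = 0.0239). The unirradiated difference of Mapk12 was 1.18 with an adjusted p of 0.178, although the 5 and 5 arrays, -0.93 to 0.05 and 0.64 to 1.25, did not overlap. The Mapk11 probe lay at chr15:88973159-88973218 (mm9).

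Mapk13 encodes p38delta, an isoform found in neutrophils and epithelia. It stood at 0.97, 1.01, 1.304, 1.62 and 1.52 in p38WT and at -0.11, -1.33, -0.36, 0.08 and 0.27 in p38DKI. All p38DKI arrays were below all p38WT arrays. The difference was -1.58 (SE 0.31, adjusted p = 0.00645), and -1.32 without array 2 (adjusted p = 0.0213). That call was lost when p38DKI array 1, p38DKI array 3 or p38WT array 4 was left out as well (adjusted p = 0.0684, 0.0876 and 0.0575, differences of -1.29, -1.21 and -1.23). Before irradiation the difference was -0.40 (adjusted p = 0.858).

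Mapk14 encodes p38alpha, the most widely expressed isoform. Its level was 4.11, 4.81, 5.39, 5.69 and 4.59 in p38WT and 4.61, 3.60, 4.42, 3.86 and 4.07 in p38DKI, and the groups overlapped. The difference was -0.80 (SE 0.23, adjusted p = 0.0427) with all arrays and -0.68 (adjusted p = 0.137) without array 2. The call was also lost without p38DKI array 4 or 5 and without p38WT array 2, 3 or 4 (differences of -1.01 to -0.61 over all omissions). A dimmer Mapk14 probe differed by 0.05, so the probes do not give the same value. The probe used lay at chr17:28885290-28885349 and that of Mapk13 at chr17:28915417-28915476 (mm9).

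The largest difference of the comparison was in Sult4a1, a cytosolic sulfotransferase known mainly from brain, whose probe lay at chr15:83906546-83906605 (mm9), 5.07 Mb from that of Mapk11. Its level was -1.77, -2.59, -2.07, -2.49 and -2.34 in p38WT and 6.26, 3.58, 5.59, 5.26 and 5.66 in p38DKI. The means were -2.25 ± 0.33 and 5.27 ± 1.01 (SD, n = 5 each), a difference of 7.52 (SE 0.40, 184-fold, adjusted p = 9.24e-13). Without array 2, the lowest of the p38DKI arrays, it was 7.95 (247-fold, adjusted p = 2.78e-14); 4 of 5 p38WT arrays were well above background. Unirradiated levels were -3.07 to -2.04 in p38WT and 3.97 to 4.61 in p38DKI, a difference of 6.88 (adjusted p = 8.82e-12). The other probes of the gene differed by 5.89 and 3.96 after irradiation.

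Tomm22, a receptor of the protein import channel of mitochondria, was lower in p38DKI with and without irradiation. It stood at 3.13, 2.07, 2.44, 2.35 and 2.64 in irradiated p38WT and at 0.80, 0.12, 1.002, 0.83 and 0.27 in irradiated p38DKI, a gap without overlap. The difference was -1.92 (SE 0.20, adjusted p = 4.32e-06), -1.80 without array 2 (adjusted p = 2.34e-05) and -1.66 before irradiation (adjusted p = 7.86e-05). Its probe lay at chr15:79503096-79503155 (mm9), 9.47 Mb from that of Mapk11.

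**Figure D2:**
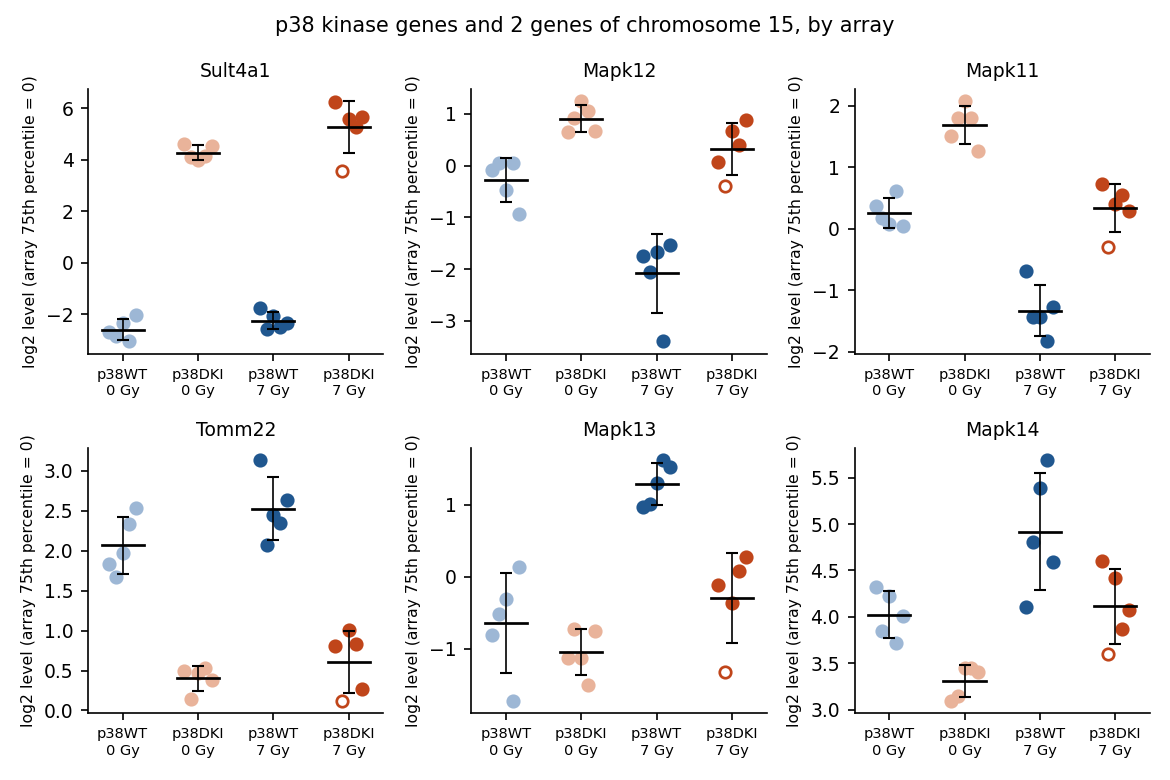
Log2 level (array 75th percentile = 0) of Sult4a1, Mapk12, Mapk11, Tomm22, Mapk13 and Mapk14 on each array, with 5 arrays per genotype and dose; bars are means, error bars SD, and the open circle is p38DKI irradiated array 2. Sult4a1, Mapk12, Mapk11 and Tomm22 separate the genotypes at both doses, and the irradiated Mapk14 groups overlap.

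Genes near the p38 loci were counted because these members lay close together. Within 10 Mb of the Mapk11 probe on chromosome 15, 26 of 245 genes were called (10.6% against 4.51% of all genes), 7 higher and 19 lower. Without array 2 there were 9 (3.67% against 1.20%), 3 higher and 6 lower. Within 10 Mb of the Mapk14 probe on chromosome 17, 39 of 478 were called (8.16%), 3 higher and 36 lower. Without array 2 there were 18 (3.77%), 2 higher and 16 lower. The counts include the genes that prompted them, Mapk11, Mapk12, Sult4a1 and Tomm22 on chromosome 15 and Mapk13 and Mapk14 on chromosome 17. The shares are therefore raised by that choice. On chromosome 17, class I genes that are near-identical copies were counted separately. Neighbouring genes are not independent, and no test was made of these shares.

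On chromosome 15 Rabl2, a small GTPase of cilia and sperm flagella, lay 0.440 Mb from Mapk11. It was lower (-1.51, adjusted p = 0.0138, and -1.48, adjusted p = 0.0383, without array 2), with -1.47 before irradiation (adjusted p = 0.0855). Once array 2 was left out, the Rabl2 call held on 1 of 9 further omissions and that of Tap1 on 5. The Mapk14 window on chromosome 17 holds the major histocompatibility complex. Tap2, which with Tap1 forms the pump that loads peptides onto class I molecules, was at 3.26 to 3.93 in p38WT and 1.68 to 2.90 in p38DKI. The Tap2 difference was -1.16 (adjusted p = 0.00386), and -0.99 without array 2 (adjusted p = 0.0115). Tap1 differed by -1.25 (adjusted p = 0.00645), and by -1.03 without array 2 (adjusted p = 0.0211). The class I genes H2-Q6, H2-Q7 and H2-Q8 differed by -0.94, -0.55 and -1.05 with all arrays and by -0.78, -0.48 and -0.87 without array 2, all called in both fits. H2-Q6 stood at 6.00 to 6.70 in p38WT and 4.69 to 5.61 in p38DKI, without overlap. The H2-Q6 and H2-Q8 probes overlap, at chr17:35565253-35565312 and chr17:35565247-35565306 (mm9), so their values are not separate readings. These class I genes are near-identical copies, so a probe may read several of them. The H2-Q7 call without array 2 held on 2 of 9 further omissions, against 9 for H2-Q6 and 8 for H2-Q8. H2-Q7 also changed sign without scaling (0.04) and with the other background correction (0.05). Tap2 and these 3 class I genes were picked for this paragraph after their values had been seen.

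Fkbp14, a folding enzyme of the endoplasmic reticulum, was at -3.13, -3.88, -3.39, -4.70 and -2.19 in p38WT and -1.49, -0.06, -2.08, -1.06 and -1.55 in p38DKI, without overlap. The difference was 2.21 (adjusted p = 0.00570) and 1.91 without array 2 (adjusted p = 0.0213); only 2 of 5 p38WT arrays were well above background. Its relative Fkbp7 differed by 1.23 (adjusted p = 0.0206) and 1.28 (adjusted p = 0.0409).

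Il6st encodes gp130, the signaling receptor shared by interleukin 6 family cytokines. Its level was -1.71, -1.91, -1.39, -2.48 and -1.59 in p38WT and -0.73, 0.81, -0.95, 0.16 and -0.91 in p38DKI. No array overlapped, and array 2 was the highest. The difference was 1.49 (adjusted p = 0.00749), and 1.21 without array 2 (adjusted p = 0.0253). Axl, a receptor tyrosine kinase that clears dying cells, was at -2.26 to -0.58 in p38WT and at -0.22 to 0.42 in p38DKI. The Axl difference was 1.22 (adjusted p = 0.0140), and 1.21 without array 2 (adjusted p = 0.0365).

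Dbp, a transcription factor of the circadian output, was at 2.56, 1.94, 1.90, 1.35 and 2.35 in p38WT and at 3.03, 5.90, 3.12, 3.32 and 3.33 in p38DKI. The groups did not overlap, and array 2 lay far above the other 4 p38DKI arrays. The difference was 1.72 (adjusted p = 0.0113) and 1.18 without array 2 (adjusted p = 0.0132), when it kept its call on every further omission. The labels give no time of day for the blood draw.

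The other rises of the rule were Zfyve21, Eprs, Abhd14a, Mtln, Ccdc90b, Hmgn1 and Itgb3bp. Their differences were 1.06 to 1.92 with all arrays and 0.88 to 1.61 without array 2. For Ccdc90b a dimmer probe differed by -0.10, and by -0.14 without array 2, against 1.11 and 1.22 for the probe used. Zfyve21 stood at -1.69 to -0.44 in p38WT and at 0.33 to 0.70 on 4 p38DKI arrays, with 2.06 on array 2. Eprs encodes a transfer RNA synthetase, Hmgn1 a nucleosome-binding protein and Mtln a small mitochondrial peptide.

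Among the falls were Apol11b and Apol10b, apolipoprotein L genes that lie close together on chromosome 15. Apol11b was at 3.55, 4.32, 4.09, 3.79 and 5.15 in p38WT and at 1.95, -0.04, 1.38, 1.42 and 3.03 in p38DKI. The highest p38DKI array stayed below the lowest p38WT array. The difference was -2.63 (SE 0.42, adjusted p = 0.00224), and -2.23 without array 2 (adjusted p = 0.00759), and it kept its call on every further omission. Apol10b differed by -2.30 (adjusted p = 0.00471), and by -1.83 without array 2 (adjusted p = 0.0115). That call was lost when p38DKI array 3 was left out as well (adjusted p = 0.0512, difference -1.73). The dimmer Apol10b probe differed by only -0.33, and by -0.42 without array 2. Before irradiation Apol11b differed by -0.69 (adjusted p = 0.777) and Apol10b by -0.23 (adjusted p = 0.974).

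Il22ra2, a soluble receptor that captures interleukin 22, differed by -2.41 (adjusted p = 0.0114) and by -2.02 without array 2 (adjusted p = 0.0449), and 1 of 5 p38DKI arrays was well above background. Smtnl1, Cir1, Itpkb and Rsrp1 differed by -1.68 to -1.62 with all arrays and by -1.44 to -1.34 without array 2. For Cir1 a dimmer probe differed by only -0.36, and by -0.25 without array 2. Itpkb encodes a kinase of inositol trisphosphate that acts in lymphocyte and granulocyte signaling, and Cir1 a corepressor of Notch signaling. Klrb1, a lectin-like receptor of the NK cell complex, was at 1.53 to 2.59 in p38WT and at 0.73 to 1.27 on 4 p38DKI arrays, with -1.21 on array 2. The Klrb1 difference was -1.49 (adjusted p = 0.0154), and -1.06 without array 2 (adjusted p = 0.0441), and the latter call held on 3 of 9 further omissions, as that of Il22ra2 did on 1.

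Of 50 interferon-stimulated genes measured, 14 were lower in p38DKI and 0 higher, against 3.36% and 1.15% of all genes, with a median difference of -0.66 against -0.10 for all genes. Without array 2, 3 were lower and 0 higher, against 0.892% and 0.310% of all genes, with a median of -0.47 against 0.01. Before irradiation the list's median difference was already -0.32, against 0.08 for all genes, with 0 members called. Its median change with irradiation was 1.43 in p38WT and 1.51 in p38DKI without array 2. Besides Irf7, Ifit2 and Slfn8, called in both fits, the 14 were Ifit1, Ifit3, Oasl1, Usp18, Cmpk2, Slfn1, Slfn2, Slfn3, Slfn4, Slfn5 and Trim30a, with differences between -1.84 (Slfn4) and -0.87 (Usp18). Their mean level over the list was 3.46 to 3.71 in p38WT, and on p38DKI arrays 1 to 5 it was 3.001, 2.05, 3.29, 3.25 and 3.07, so the groups did not overlap. The median stayed below 0 under all scalings, at -0.07 without scaling, where the median of all genes was 0.49 and no member was called. With each array's median in place of its 75th percentile 1 was called, Irf7 (median -0.59), and with the hepatocyte level as a covariate 0 were lower and 1, Gbp3, higher (median -0.32). The part of the liver transcripts was not tested beyond that covariate.

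Promoters of the falling interferon genes are shown because such genes are known to share the interferon-stimulated response element. A core of that element, GAAANNGAAA, was searched on both strands in the 250 bases before the RefSeq gene start (GRCm38.p6). Matches are in capitals, and on the opposite strand they read TTTCNNTTTC. Shown are the 5 of the 13 falling interferon genes with a RefSeq promoter whose window held a match, at chr19:34640639-34640888 (Ifit1, plus strand), chr19:34583279-34583528 (Ifit3, plus), chr11:82951852-82952101 (Slfn5, plus), chr11:83020811-83021060 (Slfn8, minus) and chr7:104465194-104465443 (Trim30a, minus). Apol11b, the fall of greatest size among those the rule names, is added at chr15:77643287-77643536 (minus). Ifit1 and Ifit3 held 2 matches and the other 4 genes 1 each. All are written 5′ to 3′ on the gene's strand.
Ifit1: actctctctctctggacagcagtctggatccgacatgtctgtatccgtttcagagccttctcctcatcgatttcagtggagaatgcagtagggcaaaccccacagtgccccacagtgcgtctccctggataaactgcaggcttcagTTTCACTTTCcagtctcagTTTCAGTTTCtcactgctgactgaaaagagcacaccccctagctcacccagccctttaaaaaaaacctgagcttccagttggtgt
Ifit3: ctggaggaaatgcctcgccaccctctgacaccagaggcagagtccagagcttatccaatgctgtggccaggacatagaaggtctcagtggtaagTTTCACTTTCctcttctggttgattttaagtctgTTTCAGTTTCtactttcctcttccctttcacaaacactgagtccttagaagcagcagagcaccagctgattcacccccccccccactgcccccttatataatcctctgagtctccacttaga
Slfn5: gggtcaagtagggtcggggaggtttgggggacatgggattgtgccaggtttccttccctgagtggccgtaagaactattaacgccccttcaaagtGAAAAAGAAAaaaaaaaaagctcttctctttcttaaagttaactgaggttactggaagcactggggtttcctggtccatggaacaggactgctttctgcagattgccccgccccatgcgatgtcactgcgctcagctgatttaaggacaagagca
Slfn8: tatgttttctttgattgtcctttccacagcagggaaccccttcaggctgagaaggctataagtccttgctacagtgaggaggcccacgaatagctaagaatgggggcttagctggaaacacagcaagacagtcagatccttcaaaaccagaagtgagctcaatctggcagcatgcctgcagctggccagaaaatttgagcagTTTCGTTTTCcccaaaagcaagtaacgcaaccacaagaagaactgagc
Trim30a: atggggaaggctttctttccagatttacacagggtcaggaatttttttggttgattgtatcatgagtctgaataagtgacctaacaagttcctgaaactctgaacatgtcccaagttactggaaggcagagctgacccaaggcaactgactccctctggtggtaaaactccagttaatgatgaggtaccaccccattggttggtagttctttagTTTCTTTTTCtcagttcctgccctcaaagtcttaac
Apol11b: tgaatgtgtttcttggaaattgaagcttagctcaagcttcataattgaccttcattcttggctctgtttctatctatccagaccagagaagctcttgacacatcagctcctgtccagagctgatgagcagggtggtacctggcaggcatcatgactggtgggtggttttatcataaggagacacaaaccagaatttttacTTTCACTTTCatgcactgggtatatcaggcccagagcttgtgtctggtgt
The core occurred in 936 of 27025 promoters of this length (3.46%), in 409 of the 11999 tested genes with a promoter (3.41%) and in 17 of 39 interferon-stimulated genes measured (43.6%). Among the 13 of them that were lower in p38DKI it occurred in 5 (38.5%). A match is a description of these letters only.

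Irf7, the transcription factor that amplifies type I interferon responses, was at 4.07, 3.95, 4.02, 4.16 and 4.29 in p38WT and at 2.61, 1.60, 2.55, 2.999 and 3.25 in p38DKI. The p38WT arrays were tightly grouped and all above the p38DKI arrays. The difference was -1.497 (SE 0.32, adjusted p = 0.0112), and -1.25 without array 2 (adjusted p = 0.0428). On each of the 9 further omissions that call was lost (adjusted p of 0.0516 to 0.130, differences of -1.38 to -1.15). Unirradiated levels were 2.81 to 4.21 in p38WT and 2.66 to 3.87 in p38DKI, with a difference of -0.41 (adjusted p = 0.863).

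Ifit2, an antiviral RNA-binding protein, was at 2.32, 1.36, 1.25, 1.76 and 1.83 in p38WT and at 0.90, -0.69, 0.67, 0.62 and -0.28 in p38DKI, without overlap. The Ifit2 difference was -1.46 (adjusted p = 0.0113), and -1.23 without array 2 (adjusted p = 0.0432). Slfn8, of the schlafen family that restrains lymphocyte growth, was at 2.85 to 3.98 in p38WT and at 2.02 to 2.49 on 4 p38DKI arrays, with 0.50 on array 2. Its difference was -1.32 (adjusted p = 0.0121), and -0.97 without array 2 (adjusted p = 0.0320). On 9 further omissions the Ifit2 call held in 1 case and the Slfn8 call in 4.

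Genes called only with array 2 had values of similar direction without it. Ifit1 was at 2.77 to 3.23 in p38WT and at 1.60, 0.75, 1.92, 2.29 and 1.58 in p38DKI. Ifit1 differed by -1.41 (adjusted p = 0.0285) and by -1.19 without array 2 (adjusted p = 0.0989). Slfn4, a myeloid schlafen, was at 4.38 to 5.13 in p38WT and at 1.998 to 3.23 in p38DKI, a difference of -1.84 (adjusted p = 0.0238) that was -1.65 without array 2 (adjusted p = 0.0779). Oasl1 differed by -1.13 (adjusted p = 0.0143) and by -0.96 without array 2 (adjusted p = 0.0553).

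Mature neutrophil transcripts were lower in p38DKI for 5 of 30 measured genes with all arrays and for 1 without array 2, beside 3.36% and 0.892% of all genes, with 0 higher in either fit. The median difference was -1.004 against -0.10 for all genes, and -0.71 against 0.01 without array 2, and 29 and 28 of the 30 lay below 0. Without scaling it was -0.41 and -0.38, against all-gene medians of 0.49 and 0.34, and 0 members were called. Before irradiation the list's median difference was already -0.44, against 0.08 for all genes, with 0 called. The mean level of the list was 3.80, 3.96, 4.27, 4.39 and 3.91 in p38WT and 3.04, 2.197, 3.41, 3.32 and 3.61 in p38DKI, without overlap.

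Csf3r, the receptor for granulocyte colony-stimulating factor, was at 7.19, 6.67, 6.88, 6.81 and 6.67 in p38WT and at 5.46, 5.02, 5.78, 6.00 and 5.85 in p38DKI. The lowest p38WT array lay above the highest p38DKI array. The difference was -1.22 (SE 0.23, adjusted p = 0.00517), and -1.07 without array 2 (adjusted p = 0.0189). Leaving out p38DKI array 1 or 3 as well ended the call (adjusted p = 0.0750 and 0.0571). Before irradiation it was -0.29 (adjusted p = 0.873), and with the hepatocyte level as a covariate -1.16 (adjusted p = 0.0310).

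Ly6g, the surface marker of mouse neutrophils, was at 0.08 to 0.44 in p38WT and at -1.15 to -0.47 in p38DKI, a difference of -1.06 (adjusted p = 0.0238) that was -0.96 without array 2 (adjusted p = 0.0739). Trem3, Cxcr2 (the chemokine receptor that draws neutrophils out of marrow) and Retnlg were also called only with array 2, at -1.66, -1.65 and -1.19, and stood at -1.37, -1.28 and -0.91 without it. Trem3 stood at 4.77 on p38WT array 3 against 1.62 to 2.19 on the other 4 p38WT arrays. Camp, the cathelicidin of neutrophil granules, was the called member of the 16 granule genes of immature stages (median -0.07, and 0.20 without array 2). Camp was at -0.78 to 0.68 in p38WT and at -2.48 to -0.22 in p38DKI, where p38DKI array 5 overlapped p38WT; the difference was -1.73 (adjusted p = 0.0110) and -1.54 without array 2 (adjusted p = 0.0405), a call that held on 2 of 9 further omissions.

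Erythroid transcripts were lower for 8 of 48 genes with all arrays and for 3 without array 2, beside 3.36% and 0.892% of all genes, with 0 higher. The medians were -0.70 and -0.33, against -0.10 and 0.01 for all genes. Without scaling they were -0.12 and -0.02, against all-gene medians of 0.49 and 0.34. The list's mean levels overlapped, at 3.12 to 3.98 in p38WT and at 3.24, 1.72, 2.63, 3.12 and 3.90 in p38DKI. Both erythroid genes described next were called in both fits and encode red cell membrane proteins.

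Epb42, protein 4.2 of the membrane skeleton, was at -1.004, -0.92, 0.05, -0.62 and -0.35 in p38WT and at -2.59, -4.68, -3.24, -2.24 and -1.10 in p38DKI. The groups came close on p38DKI array 5 but did not overlap. The difference was -2.202 (adjusted p = 0.00700), and -1.72 without array 2 (adjusted p = 0.0213). Leaving out p38DKI array 1 or 3 as well gave -1.62 (adjusted p = 0.0732) and -1.41 (adjusted p = 0.0986). Slc4a1, the band 3 anion exchanger, differed by -2.203 (adjusted p = 0.0123) and by -1.69 without array 2 (adjusted p = 0.0428), yet p38DKI array 5, at 5.74, reached the p38WT range of 5.398 to 6.53. Its call without array 2 held on 1 of 9 further omissions.

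Of 41 measured p53 target genes, 6 were lower with all arrays and 3 without array 2, beside 3.36% and 0.892% of all genes, with 0 higher. The list's medians were -0.08 and -0.01, beside -0.10 and 0.01 for all genes. Cdkn1a, the p53-driven cell cycle inhibitor p21 and a standard radiation marker, was at 2.48, 1.77, 2.19, 1.47 and 1.93 in p38WT and at 2.22, 1.37, 2.77, 2.595 and 3.10 in p38DKI. The groups overlapped widely, with a difference of 0.44 (adjusted p = 0.546), and of 0.70 without array 2 (adjusted p = 0.430). The dimmer Cdkn1a probe differed by -0.39, and by -0.07 without array 2.

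The 3 members called in both fits were Ptpn14, Tap1 (given above, also induced by interferon) and Psrc1. Ptpn14, a phosphatase that restrains YAP, was at 1.46 to 2.85 in p38WT and at -0.78, -2.87, -0.91, 0.23 and 1.73 in p38DKI, where array 5 overlapped. The Ptpn14 difference was -2.603 (adjusted p = 0.00651), and -2.02 without array 2 (adjusted p = 0.0185). Psrc1, a microtubule regulator, was at 0.72 to 1.24 in p38WT and at -0.05, -2.003, -0.39, 0.12 and 0.42 in p38DKI. The Psrc1 difference was -1.34 (adjusted p = 0.0178), and -0.93 without array 2 (adjusted p = 0.0439). That call held on 2 of 9 further omissions, and that of Ptpn14 on 7, lost without p38DKI array 1 or 3. Cd80 was among the members called only with array 2 (-1.41, adjusted p = 0.0138, and -1.15, adjusted p = 0.0520, without it). In the deposited values Cd80 had the opposite sign (0.43). So did its dimmer probe, at 0.24, and at 0.78 without array 2.

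**Figure D3:**
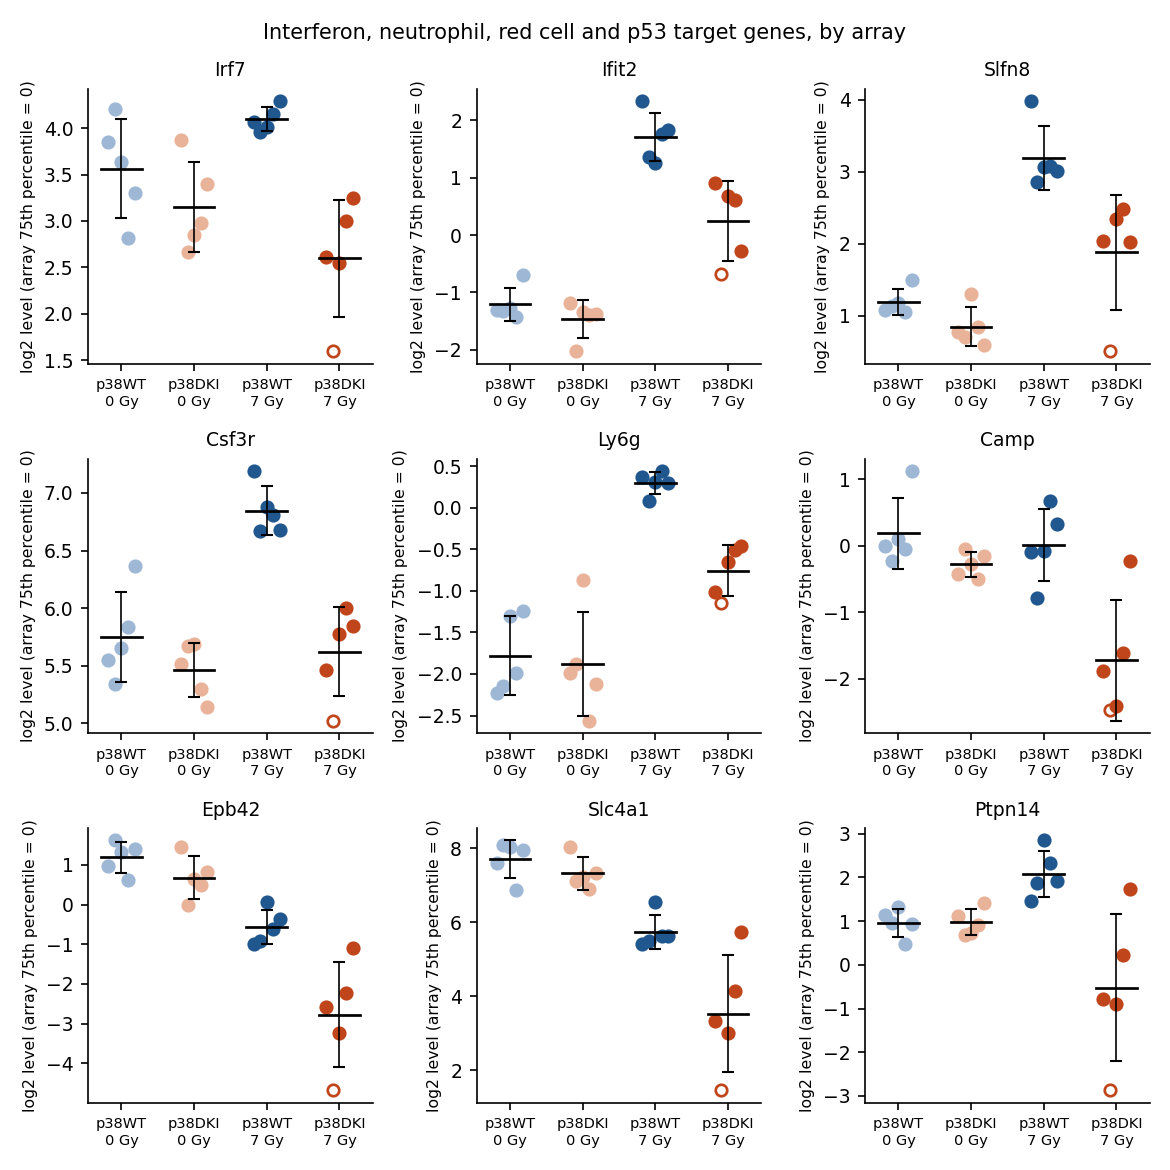
Log2 level (array 75th percentile = 0) of Irf7, Ifit2, Slfn8, Csf3r, Ly6g, Camp, Epb42, Slc4a1 and Ptpn14 on each array, 5 per genotype and dose; bars are means, error bars SD, and the open circle is p38DKI irradiated array 2. After 7 Gy the genotypes do not overlap for Irf7, Ifit2, Slfn8, Csf3r, Ly6g and Epb42, and they do for Camp, Slc4a1 and Ptpn14.

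Of 26 upstream kinases and scaffolds, 5 were lower with all arrays and 1 without array 2, beside 3.36% and 0.892% of all genes, with 0 higher. In each fit 23 of the 26 lay below 0, against 10825 and 9248 of all 18724 genes, with medians of -0.40 and -0.30. Without scaling the medians were 0.20 and 0.03, against all-gene medians of 0.49 and 0.34. The sign of this list thus depends on the scaling, though without scaling it still lay below all genes. Tab2, the adaptor that links TAK1 to ubiquitin chains, was called in both fits (-0.88, adjusted p = 0.00749, and -0.73, adjusted p = 0.0222). Gadd45a and Gadd45b, stress proteins that activate the MAP3K Map3k4, were called only with array 2. Gadd45a differed by -1.52 (adjusted p = 0.0203) and by -1.20 without array 2 (adjusted p = 0.0738), and Gadd45b by -0.91 (adjusted p = 0.0350) and -0.67 (adjusted p = 0.124). Map3k3 and Map3k8 were the other 2, at -0.81 and -0.996, and at -0.62 and -0.73 without array 2.

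Among 10 phosphatases, Dusp10, which removes phosphate from p38 and JNK, was called with all arrays (-1.17, adjusted p = 0.0185) and not without array 2 (-0.94, adjusted p = 0.0667). The list's medians were -0.68 and -0.37. Beside the counts of this paragraph, 3.36% of all genes were lower with all arrays and 0.892% without array 2. Of 32 substrates and effectors 1 was called with all arrays, Ddit3, the stress factor CHOP (-0.87, adjusted p = 0.0271, and -0.66, adjusted p = 0.0930, without array 2), and 0 without it, with medians of -0.31 and -0.15. Of 31 inflammatory cytokines and NF-kB targets 1 was called with all arrays, Nfkbiz (-0.96, adjusted p = 0.0294), and 0 without array 2 (-0.74, adjusted p = 0.104). Nfkbiz had a value of 0.03 when slide was a fixed block. Of the 31, 24 lay below 0 with all arrays and 21 without array 2, against 10825 and 9248 of all 18724 genes. The medians of this list were -0.54 and -0.22. Il6 and Ccl9 stood above 0 and were not called. Il6 was at 1.63 (adjusted p = 0.0837, 2 of 5 p38WT arrays well above background) and at 1.95 without array 2 (adjusted p = 0.0865), and Ccl9 at 2.38 (adjusted p = 0.0654) and 2.64 (adjusted p = 0.0967).

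Serum amyloid A genes, acute phase genes that liver makes in quantity and that macrophages and other cells also transcribe, varied widely within groups, and none was called. Saa3 was at 8.76, 6.03, 1.37, 5.67 and 8.98 in p38WT and at 8.12, 7.45, 9.52, 8.97 and 9.71 in p38DKI. The p38DKI arrays were uniformly high and the p38WT arrays spread widely, with an overlap. The difference was 2.59 (adjusted p = 0.116), and 2.92 without array 2 (adjusted p = 0.163). Saa1 differed by 2.003 (adjusted p = 0.153) and by 1.05 without array 2 (adjusted p = 0.503), with 10.27 on array 2 against 4.33 to 6.15 on the other p38DKI arrays. Saa2 was at -4.20 to 1.58 in p38WT and at 2.61, 9.31, -0.26, 3.85 and 4.32 in p38DKI, a difference of 5.44 (adjusted p = 0.0527) that was 4.11 without array 2 (adjusted p = 0.186). Of 19 acute phase genes 0 were called in either fit, with medians of 3.42 and 1.76.

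Hepatocyte markers had a median difference of 3.65 with all arrays, 2.01 without array 2 and 2.04 before irradiation. Of 54 markers, 2 were higher with all arrays and 0 without array 2, beside 1.15% and 0.310% of all genes. Those 2 were Cyp2e1 (4.44, adjusted p = 0.0493) and Serpina1c (6.66, adjusted p = 0.0494), which without array 2 stood at 2.72 (adjusted p = 0.161) and 5.31 (adjusted p = 0.170). The levels differed between p38DKI arrays even without array 2, at -0.48, -2.47, 0.14 and 0.84 on arrays 1, 3, 4 and 5. Fibroblast and matrix genes (28) had medians of 0.85 and 0.93 and mesothelial and epithelial genes (21) of 1.11 and 0.65, with 0 called in both. Fn1, fibronectin, was at 6.16, 3.54, 5.86, 2.80 and 5.68 in p38WT and at 6.26, 6.47, 7.57, 6.20 and 7.27 in p38DKI. The groups did not overlap, but 2 p38WT arrays were far below the others; the difference was 1.95 (adjusted p = 0.0871), and 2.02 without array 2 (adjusted p = 0.162). Timp1 differed by 2.01 (adjusted p = 0.169) and by 2.36 without array 2 (adjusted p = 0.204), and Fbln1 by 1.40 (adjusted p = 0.0651) and 1.59 (adjusted p = 0.0824). Heart muscle (19), skeletal muscle (9) and endothelium (17) had 0 called in both fits and medians of -0.74, -0.42 and -0.11, and of -0.46, -0.27 and -0.02 without array 2.

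**Figure D4:**
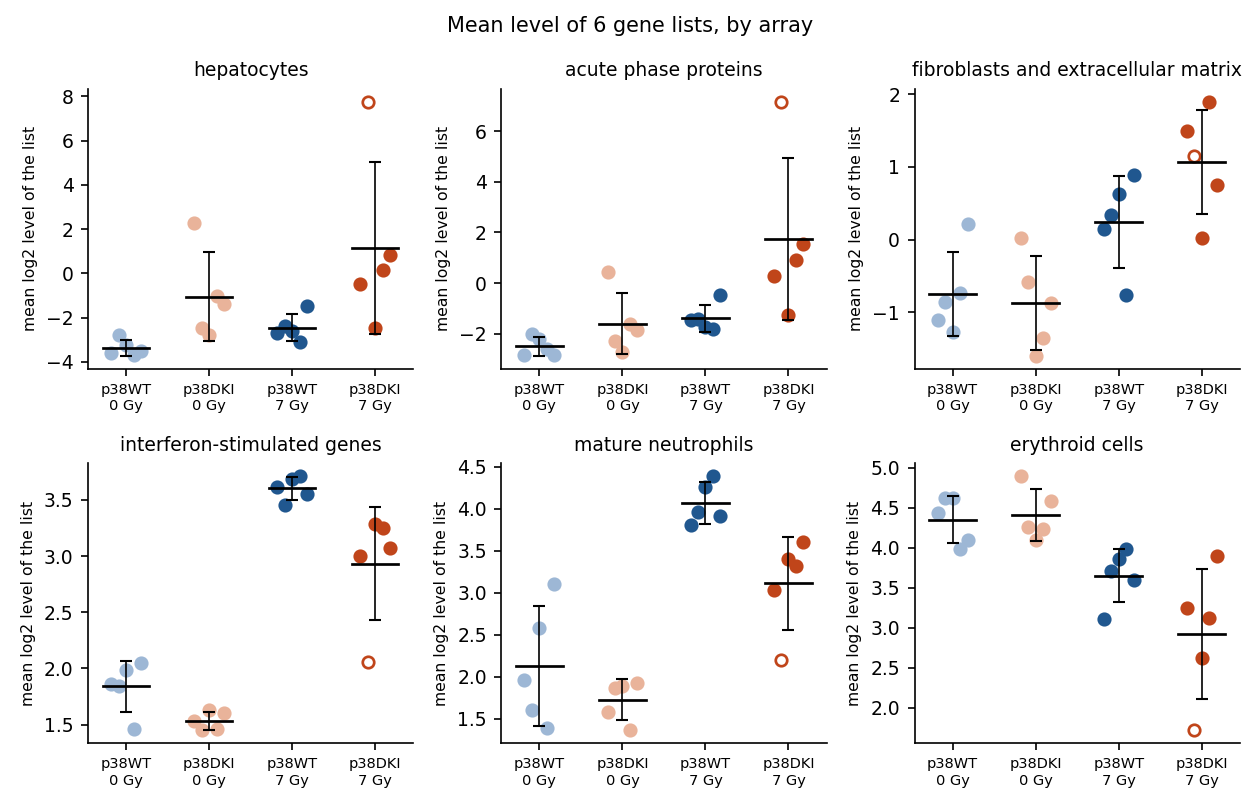
Mean log2 level of 6 gene lists on each array (hepatocytes, acute phase proteins, fibroblasts and extracellular matrix, interferon-stimulated genes, mature neutrophils, erythroid cells), 5 arrays per genotype and dose; bars are means, error bars SD, and the open circle is p38DKI irradiated array 2. Array 2 has the highest hepatocyte level (7.76) and the lowest interferon, neutrophil and erythroid levels of its group.

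Of 11 class II histocompatibility genes, 0 were called with all arrays and 1 was higher without array 2, with medians of 0.03 and 0.38. Among all genes, 1.15% were higher with all arrays and 0.310% without array 2. H2-Ab1, a class II beta chain, was at 4.89, 4.16, 3.92 and 5.06 on p38WT arrays 1, 2, 4 and 5, with no value on array 3, and at 5.88, 4.32, 7.12, 5.91 and 6.48 in p38DKI. Array 2 alone overlapped p38WT. The difference was 1.44 (adjusted p = 0.0664), and 1.84 without array 2 (adjusted p = 0.0292), over 4 p38WT arrays. That call was lost without p38DKI array 3 or 5 or p38WT array 2 or 4 (highest adjusted p = 0.110, differences of 1.58 to 2.03). B cell genes (27) had 0 called and medians of -0.09 and 0.35. Dendritic cell genes (17) had 0 called and medians of -0.29 and 0.23. With all arrays the sign of each of these 3 medians changed under another setting. Without scaling they were 0.51 and 0.30 for B and dendritic cells, against 0.49 for all genes. With the other background correction it was -0.11 for class II, against -0.16 for all genes.

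T cell genes (30) had medians of -0.56 and -0.06, with Txk lower with all arrays only (-1.13, adjusted p = 0.0499, and -0.67, adjusted p = 0.144, without array 2). NK and cytotoxic genes (25) had medians of -0.81 and -0.33 with 0 called. On array 2 the mean T cell level was -0.56 against 1.33 to 1.73 on the other p38DKI arrays, and the mean NK level 0.60 against 2.70 to 3.10. Monocyte genes (30) had medians of -0.08 and 0.19, with Itgal and Spn lower with all arrays only. Itgal was at -1.16 (adjusted p = 0.0356) and without array 2 at -0.75 (adjusted p = 0.107), and Spn at -1.11 (adjusted p = 0.0495) and -0.63 (adjusted p = 0.124). Basophil, mast cell and eosinophil genes (15) had medians of -0.43 and -0.07, and platelet genes (37) of -0.63 and -0.29, with 0 called. Among all genes, 3.36% were lower with all arrays and 0.892% without array 2.

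The remaining lists held few calls, beside 3.36% of all genes lower and 1.15% higher with all arrays. Without array 2 these shares of all genes were 0.892% and 0.310%. DNA repair genes (38) had medians of 0.09 and 0.15, with Apex1, an abasic site nuclease, higher with all arrays only (0.97, adjusted p = 0.0372, and 0.69, adjusted p = 0.131, without array 2). Apoptosis regulators (38) had medians of -0.08 and 0.06, with Bcl2l1, Birc3 and Tnfsf10 lower with all arrays only (-1.20, -0.78 and -1.19, and -0.90, -0.67 and -0.83 without array 2). Immediate early and AP-1 genes (24) had medians of -0.35 and -0.18, with Junb and Mafk lower with all arrays only (-0.82 and -0.72, and -0.68 and -0.61 without array 2). NRF2 targets (32) had medians of 0.02 and 0.01, with Gclm lower with all arrays only (-0.96, and -0.84 without array 2). Heat shock genes (25) had medians of 0.39 and 0.27 with Hspe1 (0.94, and 0.71 without array 2), and oxidative phosphorylation genes (73) of 0.35 and 0.15 with Atp5g2 (0.58 in both fits), higher with all arrays only. Another Atp5g2 probe differed by 2.31, and by 2.23 without array 2, so the probes do not give the same value. Ribosomal protein genes (77) had medians of -0.05 and 0.17. Cell cycle genes (40) had medians of -0.11 and 0.13 and glucocorticoid-responsive genes (17) of 0.26 and 0.02, with 0 called.

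**Figure D5:**
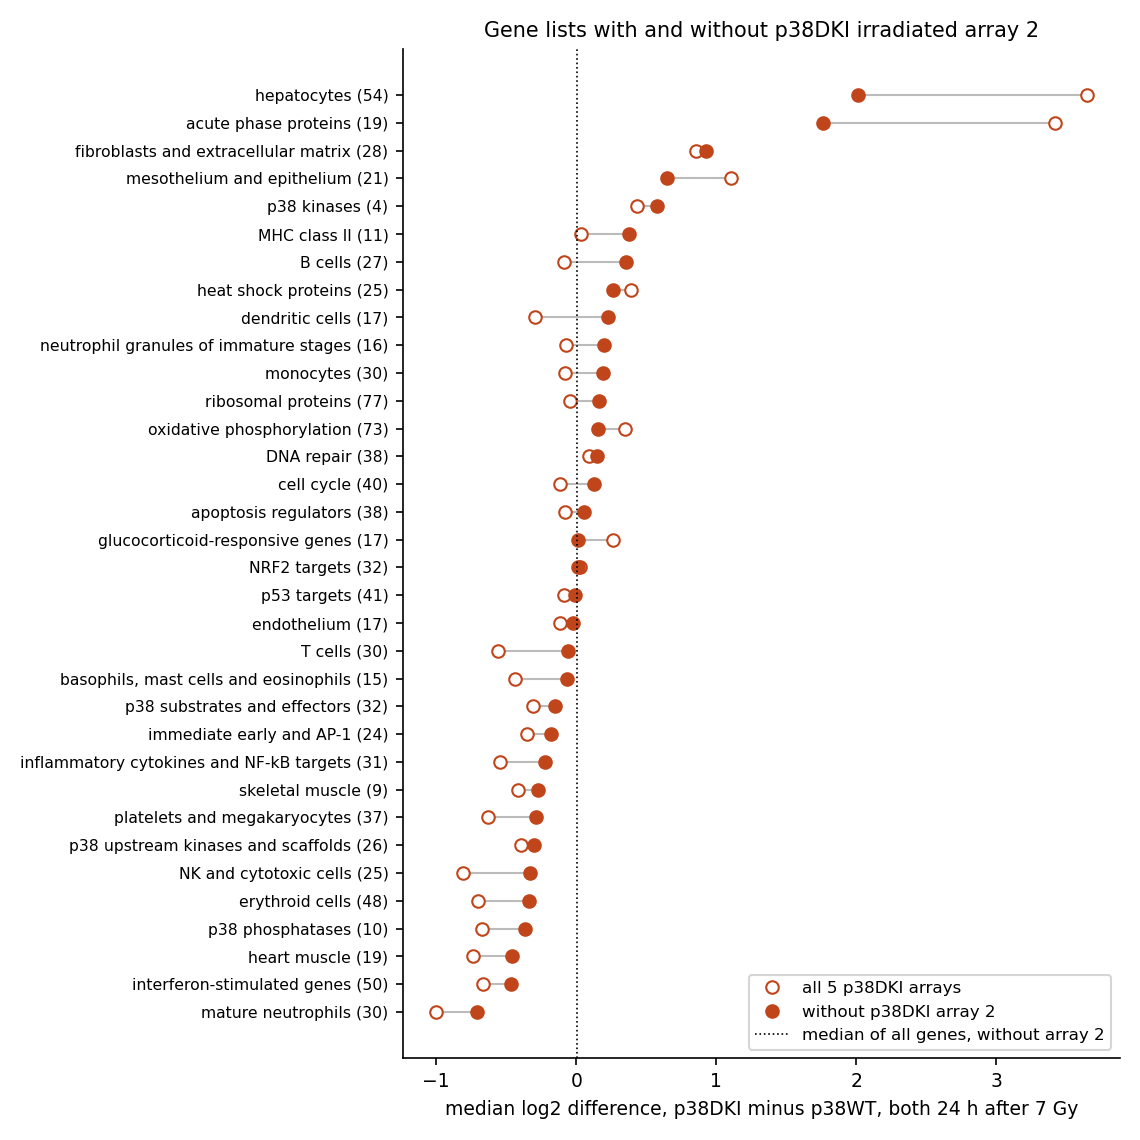
Median log2 difference, p38DKI minus p38WT after 7 Gy, for each of 34 gene lists (number measured in brackets), with all 5 p38DKI arrays (open) and without array 2 (filled); the dotted line is the median of all genes without array 2. Acute phase and hepatocyte lists have the highest medians (3.42 and 3.65 open), mature neutrophils the lowest (-1.004 open).

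Leaving out array 2 added 21 calls as well as removing 640. Rises called only without it included Ncf4, Slamf8, Gm14438 and Lxn, at 0.82 to 1.33. Ncf4, a subunit of the phagocyte NADPH oxidase, differed by 0.98 (adjusted p = 0.0115). The corresponding falls were Cyp4f17, Myh14, H2-Bl, H2-K2 and Gpr146, at -1.41 to -0.49. Myh14, a non-muscle myosin, differed by -1.41 (adjusted p = 0.0115), while its dimmer probe differed by -0.10 without array 2. Called only with array 2, with the smallest p, were the rises She, Cebpzos, Mtch1, Nqo2 and Pus7 and the falls Cd80, Tulp1, 1520401A03Rik, Oasl1 and Gmeb1. She, an adaptor protein, was not well above background on any p38WT array and was at least 2.17-fold higher.

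The same genotypes before irradiation differed in 19 genes (0.101%), 16 higher in p38DKI (0.0855%) and 3 lower (0.0160%). Of the 204 genes called after irradiation in both fits, 6 were among them: Sult4a1, Tomm22, Mapk11, Dnaaf5, Patz1 and a probe without a gene name. Dnaaf5, an assembly factor of dynein arms, was not well above background on any p38WT array and was at -0.31, -1.63, -0.58, -1.70 and -3.80 in irradiated p38DKI, where array 5 overlapped the measured p38WT levels. That makes it at least 3.09-fold higher after irradiation (adjusted p = 0.0137; at least 3.10-fold and adjusted p = 0.0327 without array 2) and at least 5.56-fold higher before it (adjusted p = 0.00384). Such a bound sets the p38DKI mean against, on each p38WT array, the lowest level of a probe well above background or the probe's own level, whichever is higher. Patz1, a zinc finger repressor, differed by 1.44 after irradiation (adjusted p = 0.0185, and 1.64 with adjusted p = 0.0169 without array 2) and by 1.91 before it (adjusted p = 0.0116). Arhgap8, 4.37 Mb from Mapk11, was at least 3.02-fold higher before irradiation (adjusted p = 0.000558) and differed by 0.57 after it (adjusted p = 0.351), and by 0.78 without array 2 (adjusted p = 0.305). Dnaaf5, Patz1 and Arhgap8 were singled out after their values had been seen.

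Whether the genotype difference itself changed with irradiation was tested gene by gene in the same fit. With all arrays 1 gene was called (0.00534%) and 2612 had an unadjusted p under 0.05. Without array 2, limma called 0 and 1817 had an unadjusted p under 0.05. The gene was Olfr1402, an olfactory receptor, with a mean of -1.87 in irradiated p38WT and -3.03 in irradiated p38DKI against -2.53 and -1.68 before irradiation. The difference of differences was -2.01 (adjusted p = 0.0415), and -1.87 without array 2 (adjusted p = 0.0531). Genes called after irradiation and not before it are therefore not shown to differ between the doses.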

How the data were processed

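Blood RNA of 30 mice, 5 per group, was hybridised to one-colour Agilent arrays. The authors deposited scanner files holding a processed signal in intensity units, background-corrected by Agilent Feature Extraction 12.0.2 per the file headers. The deposited value table holds log2 values, used as an alternative. Of 44397 spots, 43020 were not controls and stood for 39429 probes. Intensity was taken to log2 and each array's 75th percentile subtracted. Probes were kept when well above background on at least 4 of 5 arrays of a group and present on at least 20 arrays (23614 probes); the brightest stood for a gene (18724 genes, 15139 named through RefSeq). Group means of all 30 arrays were fitted with limma 3.58.1 in R 4.3.3 (24 residual degrees of freedom), and again over 29 arrays without p38DKI irradiated array 2. No value was imputed, and outlier spots were left out. Dimmer kept probes of a gene could give other values, which are stated above only for some genes.

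Named genes were the 15 largest rises and falls called in both fits, with all 5 arrays of the brighter group well above background, without overlap and with a gene name; Mapk14, Mapk11, Mapk12, Mapk13, Saa1, Saa2, Saa3 and Cdkn1a; the 3 members of smallest p of each of 34 gene lists (1135 entries, 1011 measured); and up to 5 rises and 5 falls called in 1 fit only. Further called list members and neighbours of the p38 genes were added after their values had been seen. Members, lists and rules were chosen with earlier results of these data known, so the lists are descriptions without a test. Some genes under these rules are not reported here. Replicate numbers of the titles were not treated as pairs. The fit was tested on simulated data with independent noise of equal spread in all groups. The simulation held no aberrant array, slide effect or scaling difference, so it cannot speak to those features of the real arrays. Alternatives are given in the closing section. Probe positions are mm9 per the file headers, whose annotation was not used here, so exon or UTR is not stated. Per the labels the 5 arrays of a group are separate samples; where these were not separate animals, p-values measure only the spread between samples.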

Additional observations from a re-analysis of the deposited data

Results flagged for a closer look

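Within the groups of 5 irradiated arrays, 1 array stood far from the other 4 for 38 of 264 pairs of a named gene and a group (14.4%). Chance flags about 1 in 20 groups, but some genes were named because leaving out array 2 changed their call, so this share is a description and no comparison with chance. In 28 of the 38 the array was p38DKI irradiated array 2, which is rich in hepatocyte transcripts. The part of those transcripts was not tested. On array 2 the gene levels that stood apart were Zfyve21 at 2.06, Dbp at 5.90, Hmgn1 at 4.17, Klrb1 at -1.21, Ncf4 at 4.24, Slamf8 at -2.25 and Lxn at 0.22. Also apart on that array were Cyp4f17 at 0.58, Myh14 at 0.96, H2-Bl at 3.05, H2-K2 at 7.19, Gpr146 at 2.36, 1520401A03Rik at -3.07 and Tab2 at 0.29. It further held Gadd45b at -0.23, Slfn8 at 0.50, Txk at -0.29, Gata3 at -2.24, Cd5 at -0.59, Trem3 at -0.42 and Itgal at -0.62. It further held Spn at 0.33, H2-Q6 at 4.69, H2-Q8 at 4.05, Slfn2 at 2.50, Map3k3 at -2.40, Hspe1 at 5.06 and Birc3 at -2.20. On p38WT irradiated array 4, Mapk12 at -3.40, Fkbp7 at -3.03 and Timp1 at -4.83 stood apart. On p38WT irradiated array 3, Gm14438 at 8.18, Trem3 at 4.78 and Slc4a1 at 6.53 stood apart. On p38WT irradiated array 2, Dnaaf5 at -5.46 stood apart. On p38WT irradiated array 1, Slfn8 at 3.98, Slfn2 at 5.12 and Slfn3 at 1.76 stood apart. 

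Mean levels of gene lists stood apart in the same way. On array 2 these were p38 kinases at 0.39, p38 upstream kinases and scaffolds at 0.44, p38 phosphatases at -0.53, p38 substrates and effectors at 0.64, inflammatory cytokines and NF-kB targets at -0.41, p53 targets at 0.70, interferon-stimulated genes at 2.05 and B cells at -2.65. Others on it were T cells at -0.56, NK and cytotoxic cells at 0.60, monocytes at 1.31, dendritic cells at -1.08, cell cycle at -1.96, immediate early and AP-1 at -0.25, glucocorticoid-responsive genes at 3.54 and apoptosis regulators at 0.96. On p38DKI irradiated array 5 it was neutrophil granules of immature stages at 2.15. On p38WT irradiated array 2 it was heart muscle at 2.65. On p38WT irradiated array 4 it was p38 upstream kinases and scaffolds at 1.55. 

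The genotype difference itself differed between irradiated and unirradiated mice for Olfr1402, by -2.01 in a test of the difference of differences (adjusted p = 0.0415), and by -1.87 without array 2 (adjusted p = 0.0531).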

How the results depend on the processing

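The share of genes called depended strongly on the processing, from 4.51% with all arrays and 1.20% without p38DKI array 2, given in that order below. The shares were 0.470% and 0.139% with each array's median in place of its 75th percentile. They were 0.406% (68 higher, 8 lower) and 0.0908% (15 higher, 2 lower) without scaling, 0.00534% and 0.0107% with normexp background correction, and 1.13% and 0.347% with no filter on dim probes. They were 0.00534% and 0.0214% with only the arrays compared. There the spread came from fewer arrays, and from the irradiated p38DKI and p38WT groups alone. The share was 2.75% without array 2 when the p38DN arrays were dropped. Slide gave 0.00534% and 0.0107% as a fixed block and 10.3% and 0.550% as a random block. The hepatocyte covariate gave 0.668% with all arrays. Array weights gave 2.32% (188 higher, 246 lower) and 1.997% (167 higher, 207 lower), and the deposited values 2.94% (198 higher, 247 lower) and 0.502% (31 higher, 45 lower). A 75th percentile taken only over probes detected everywhere gave 3.66% (355 higher, 331 lower) and 1.07% (117 higher, 84 lower). Leaving out 1 array gave 1.20% to 5.67%, and 0.385% to 1.28% without array 2. Apart from the arrays left out, the cause was not tested.

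Signs turned for H2-Q7 without scaling (0.043) and with normexp (0.051, and 0.014 without array 2), She with normexp (-0.15), Nfkbiz (0.026) and Olfr1402 (0.051 in both fits) with slide as a fixed block, and Cd80 in the deposited values (0.43). Without array 2 they also turned for H2-K2 with normexp (0.0059) and Ccdc90b in the deposited values (-0.083). Of 29 of the largest changes, 29 kept their direction with all arrays and 28 without array 2. No pairing by replicate number was seen: same-numbered arrays correlated at -0.312 to 0.0701, and 0 of 5 correlated best with their own number. So few correlations cannot exclude a pairing. A replicate block gave 5.11% and 1.16%. Dim probes limit the folds given as bounds.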
